A study of Mus musculus with 14 samples.

Results

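The 9 genes described here are the 6 distal-less genes of the mouse, Dlx1 to Dlx6, and the 3 muscle segment genes, Msx1, Msx2 and Msx3. They were taken by name, and all 9 were found among the 21938 protein-coding genes annotated on the assembled chromosomes. The data are a list of 153983 H3K27me3 sites from immortalised mouse embryo fibroblasts (iMEF). In these cells exon 4 of the floxed Ash2l alleles had been deleted by a Cre-ER recombinase, and a lentivirally introduced fusion, FKBP-HA2-ASH2L, took over from the endogenous protein. The fusion holds human ASH2L. The control cells carry the same deletion and the same fusion, and the figure legends of the study name a single cell clone for these experiments. Control cells received no dTAG, while the treated cells were exposed to dTAG-13, a compound that directs the tagged protein to degradation, for 30 min, 2 h, 4 h, 8 h or 16 h. By the labels there were 2 H3K27me3 libraries in each of these 6 groups and 2 input libraries, one from control cells and one from cells treated for 16 h. The list was brought together over all samples and gives positions only. Each value below therefore describes 1 combined list, with no replicates, no read depth and no comparison of treated with control cells, and no test was possible.

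Dlx and Msx proteins are transcription factors with a homeodomain. In vertebrates the Dlx genes lie in convergent pairs, the members of a pair share regulatory sequence, and each pair is found on the chromosome of a Hox cluster. Dlx genes pattern the branchial arches, the forebrain and the limb, and Msx genes act downstream of BMP signals in teeth, skull, limb buds and the dorsal neural tube. H3K27me3 is set by Polycomb repressive complex 2 and typically lies over silent developmental regulator genes in broad domains.

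The 9 genes fell into 3 patterns. Dlx3, Dlx4 and Msx3 lay entirely within wide H3K27me3 sites. Msx1, Msx2, Dlx2 and Dlx5 had no site in the gene body, although for Msx1 the surroundings were densely covered. Dlx1 and Dlx6 had 1 site each in the body, over 6.22 and 28.2% of it. A site overlapped the window of 1 kb either side of an annotated transcription start site (TSS) for 7 of the 9 genes, while this was the case for 31.5% of all protein-coding genes. The count was 3, namely Dlx1, Dlx6 and Msx3, when the centre of the site had to be in the window. By that rule 24.7% of all genes had a site. Dlx3 and Dlx4 did not meet it, as the centres of their wide sites lay more than 1 kb from a start. A site of at least 2 kb was found there for 4 of the 9, compared with 16.1% of all genes. The body was covered in full for 3 of the 9 genes, compared with 2.19% of all genes. A site of any width lay in the body of 5 of the 9, compared with 46.7%, so that the share of members with any site in the body was close to the background. All 9 had a site in the body or within 50 kb of it, as had 88% of all genes. The median share of the body covered was 6.22% for the 9 genes and 0 for all genes. That of the 9 genes was the value of Dlx1, from a 365 bp site. It fell to 0 with only sites of at least 500 bp. With 50 kb on either side included, the medians were 15.1% and 3.81%.

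**Figure D1:**
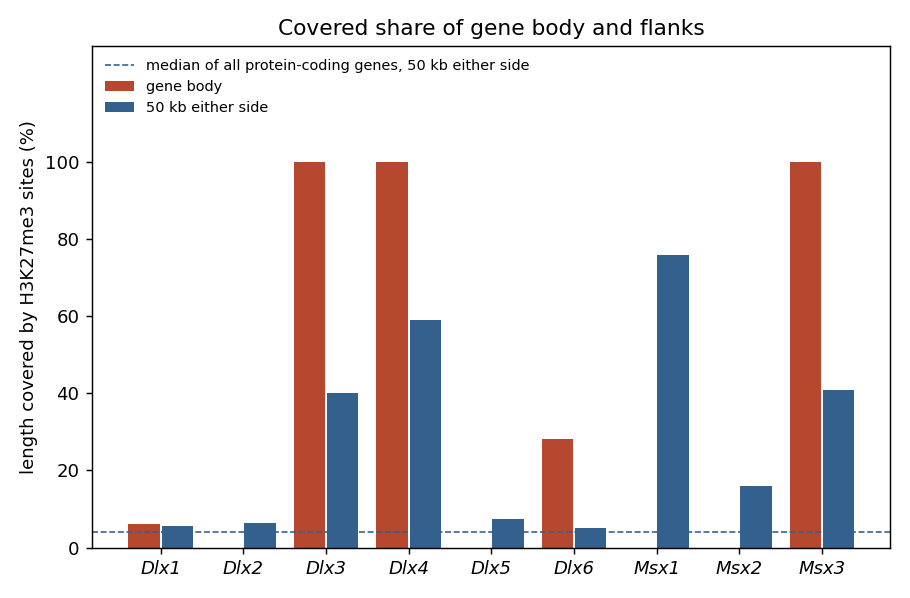
The bars give, for each of the 9 genes, the percent of the gene body (red) and of the 50 kb on either side (blue) covered by H3K27me3 sites, and the dashed line is the median of the flanks of all protein-coding genes, at 4.09%. Dlx3, Dlx4 and Msx3 stand at 100% of the body, while Msx1 has no covered base in the body and 75.8% of its flanks covered.

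The bases upstream of 3 starts are shown to set a covered promoter, that of Msx3, beside those of Dlx2 and Msx1, which had no covered base. They are from the RefSeq promoter table (GRCm38.p6), which held 5 of the 9 genes. The 250 bases before the RefSeq start are printed 5′ to 3′ on the strand of the gene, with each CpG in capitals, because H3K27me3 domains often centre on CpG-rich starts. The positions are chr2:71546755-71547004 for Dlx2, chr5:37824586-37824835 for Msx1 and chr7:140049089-140049338 for Msx3, all on the minus strand.
Dlx2 promoter: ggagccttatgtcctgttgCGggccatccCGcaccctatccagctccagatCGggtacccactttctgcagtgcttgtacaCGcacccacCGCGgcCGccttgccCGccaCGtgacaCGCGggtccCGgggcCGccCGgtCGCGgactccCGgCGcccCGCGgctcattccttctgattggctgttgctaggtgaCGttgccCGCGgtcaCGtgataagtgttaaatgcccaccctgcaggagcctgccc
Msx1 promoter: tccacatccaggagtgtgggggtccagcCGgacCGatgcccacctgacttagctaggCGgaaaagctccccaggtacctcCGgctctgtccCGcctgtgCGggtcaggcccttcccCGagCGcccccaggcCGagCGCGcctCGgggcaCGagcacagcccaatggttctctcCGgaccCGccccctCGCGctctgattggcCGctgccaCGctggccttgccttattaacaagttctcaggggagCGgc
Msx3 promoter: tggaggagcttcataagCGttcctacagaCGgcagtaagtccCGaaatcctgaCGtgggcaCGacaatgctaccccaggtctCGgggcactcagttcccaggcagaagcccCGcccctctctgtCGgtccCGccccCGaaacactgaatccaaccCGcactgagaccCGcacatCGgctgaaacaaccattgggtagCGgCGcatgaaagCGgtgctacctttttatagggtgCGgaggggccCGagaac

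The number of CpGs in these bases was 24 for Dlx2, 20 for Msx1 and 18 for Msx3. In the 500 bp on either side of the 5′ end of the gene the numbers were 72, 66 and 75, with the highest at Msx3. With the 50 bases behind the start included, as the table gives them, the promoters of Dlx1, Dlx2, Msx1, Msx2 and Msx3 held 27, 29, 29, 22 and 22 CpGs. All 5 were above the upper quartile of 20 over the 32851 promoters of the table, where the median was 7. All 300 bases were covered by a site at Msx3 and none at the other 4 genes. The letters TAATTA, a core to which many homeodomains bind and which reads the same on both strands, were found in the Msx2 promoter and in none of the other 4, and occurred in 5.29% of all promoters of the table. TAATTG, with its reverse CAATTA, occurred in 8.00% of all promoters and in none of these 5.

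The pair on chromosome 11 was the most covered of the 3 Dlx loci. Dlx3, which acts in hair follicles, teeth and placenta, is at 95120119 to 95125296 (plus strand, GRCm38), and Dlx4 at 95140447 to 95146263 (minus strand). From the start of one gene to the start of the other, 93.5% of 26145 bp was covered by 7 sites. The Dlx3 gene lay within a site of 8250 bp, from 95117728 to 95125977, that began upstream of its TSS and ended behind the last exon. The Dlx4 gene lay within a site of 16984 bp, from 95135860 to 95152843, which also contained the TSS of the antisense transcript Dlx4os. The 15150 bp between the genes were covered to 88.8%, and the longest stretch without a site was 564 bp. With sites closer than 1 kb joined, one domain of 39.6 kb spanned both genes, from 95113270 to 95152843. Each of the 3 annotated starts of these genes was inside a site, and the window of 1 kb on either side was covered in full at each.

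Coverage around Dlx3 and Dlx4 was uneven. It was 11.3% in the 50 kb on the Dlx3 side and 69.7% in the 50 kb on the Dlx4 side. Upstream of Dlx3 the covered share went from 100% within 1 kb to 64.4% at 1 to 5 kb and 41.0% at 5 to 10 kb, and there was no site at 10 to 50 kb. On the Dlx4 side, a stretch of 9708 bp without a site followed the domain, and further sites came after it, of which the widest had 17585 bp (95178035 to 95195619). Neither of the protein-coding neighbours, Itga3 at 43317 bp on the Dlx3 side and Tac4 at 115265 bp on the Dlx4 side, had a site in its body or at a TSS.

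The Dlx1 and Dlx2 locus on chromosome 2 was sparsely covered. These genes are needed for the migration of interneurons in the forebrain. Dlx1 is at 71528113 to 71533981 (plus strand) and Dlx2 at 71543408 to 71546754 (minus strand). Sites covered 5.54% of the 18642 bp from start to start, and there were 2 of them. The first, the 365 bp site at 71528162 to 71528526, had its centre in an exon of Dlx1 and covered 6.22% of that gene. It was in the window of 3 of the 6 annotated Dlx1 starts and contained none of them. The other, of 668 bp at 71537258 to 71537925, was between the genes and covered 7.09% of the 9426 bp there. It contained the outermost TSS of the antisense transcript Dlx1as. Dlx2 had no site in its body or at either of its 2 starts, and the site nearest to a start was 2208 bp away, upstream. The widest site around the pair, 2264 bp at 71550261 to 71552524, was also upstream of Dlx2. With 50 kb on either side included, 13 sites covered 5.75% of the locus, and their median width was 368 bp. The nearest protein-coding gene, Metap1d, at 2918 bp from the Dlx1 start, had sites over 0.844% of its body.

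Dlx5 and Dlx6, which specify the lower jaw and act in bone and the inner ear, had sites on the Dlx6 side. Dlx6 is on chromosome 6 at 6863334 to 6868568 (plus strand) and Dlx5 at 6877805 to 6882085 (minus strand). The covered share from start to start was 8.95% of 18752 bp. A site of 1478 bp at 6863912 to 6865389 covered 28.2% of the Dlx6 body and 91.5% of a short antisense gene model, Dlx6os2. A site of 425 bp lay upstream, within 1 kb of the outermost Dlx6 start, and the 2563 bp site at 6859247 to 6861809 lay farther upstream. The covered share was 79.1% at 1 to 5 kb upstream of Dlx6. The sites of 425 and 2563 bp are in introns of Dlx6os1. This antisense transcript spans Dlx6 without reaching Dlx5 and is known as a regulator of the pair. Dlx6os1 itself was covered to 12.7% by 7 sites. Dlx5 had no site in its body, at any of its 3 starts or within 10 kb of its 5′ end. It was in a stretch of 53630 bp without any site, from 6869434 to 6923063, which began between the genes, and the nearest site to a Dlx5 start was 12635 bp away. The 9236 bp between the genes were covered to 2.17%, by 1 site of 200 bp, the smallest width in the list.

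**Figure D2:**
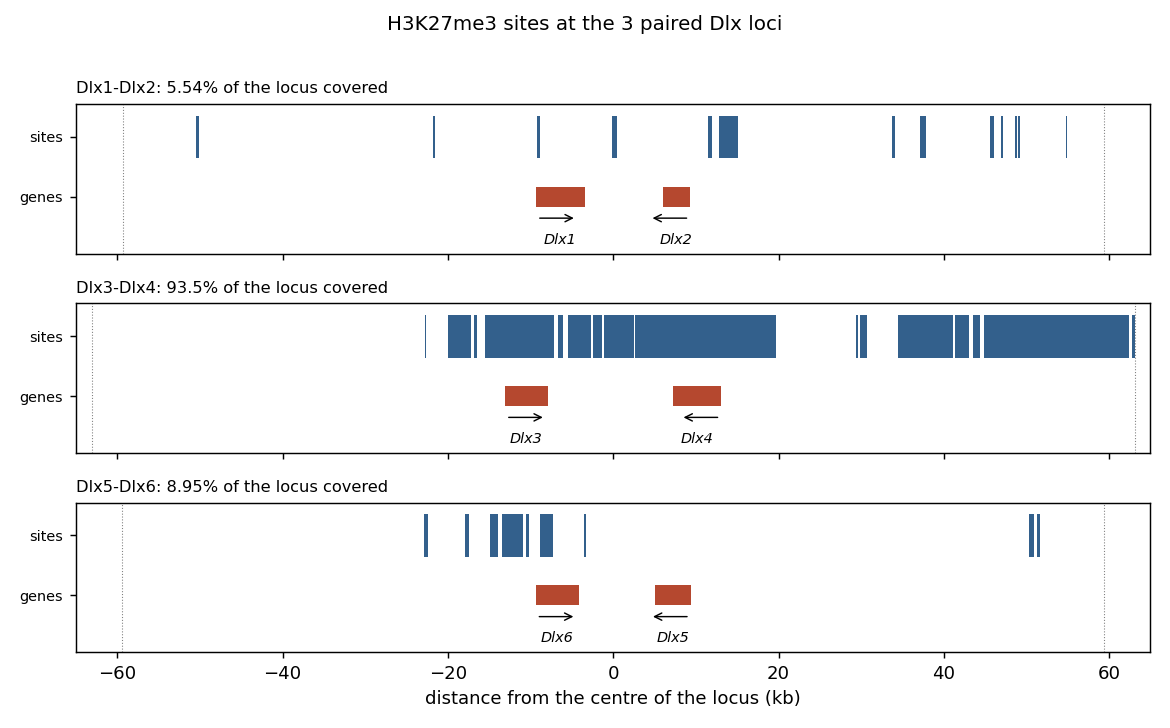
H3K27me3 sites (blue) and Dlx genes (red, arrows in the direction of transcription) are drawn to scale against the distance in kb from the centre of each locus, with dotted lines at 50 kb from the outer gene ends. Sites fill the Dlx3 and Dlx4 locus to 93.5%, while the other loci hold scattered narrow sites and are covered to 5.54 and 8.95%.

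The 3 loci have the same convergent arrangement. In the list as deposited, the covered share of the Dlx3 and Dlx4 locus was more than 10 times that of either other locus. With sites joined at 5 kb it was 100%, against 32.5% at Dlx5 and Dlx6 and 5.54% at Dlx1 and Dlx2. The order of Dlx3 and Dlx4 above Dlx5 and Dlx6 above Dlx1 and Dlx2 was found in all 5 settings of the site list, namely as deposited, with sites joined at 1 or 5 kb, and with narrow sites left out at 500 bp or 1 kb. Between the genes the lower pairs were in the reverse order, with 7.09% at Dlx1 and Dlx2 and 2.17% at Dlx5 and Dlx6. This turned with sites joined at 5 kb (7.09 and 9.37%), and both shares were 0 with only sites of at least 1 kb. With 50 kb included the lower pairs were in the same order as in the loci, with 5.75 and 6.27%. That order turned with sites joined at 1 kb (7.34 and 7.27%) and with flanks of 100 kb (4.28 and 3.61%). The median covered share over all protein-coding genes with 50 kb on either side was 3.81%, and the values of Dlx1, Dlx2, Dlx5 and Dlx6, from 5.59 to 7.13%, were above those of 56.3 to 60.4% of all genes. The values of Dlx3 and Dlx4 were 43.0 and 61.4%, above those of 94.4 and 98.1% of all genes. Windows of the genes of a pair share most of their bases.

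The sequence composition of the loci also differed. From start to start, the Dlx1 and Dlx2 locus had 39.5 CpGs per kb, the Dlx5 and Dlx6 locus 26.1 and the Dlx3 and Dlx4 locus 23.3. The GC content was 52.9, 48.7 and 53.5% in the same sequence of loci. Dlx2, with no site, had 59.5 CpGs per kb of gene, more than any of the other 8 genes. Repeat-masked sequence made up 11.5% of the Dlx1 and Dlx2 locus, 15.5% of the Dlx5 and Dlx6 locus and 17.7% of the Dlx3 and Dlx4 locus. The covered share thus ran in the order of the repeat share and in the reverse order of CpGs per kb, and the part of composition was not tested. None of the loci contained an undetermined base. In the loci with 50 kb on either side, sites had more CpGs than the remaining bases at Dlx5 and Dlx6 (27.8 against 11.5 per kb) and at Dlx3 and Dlx4 (18.7 against 13.4), but not at Dlx1 and Dlx2 (15.4 against 16.6).

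Because each Dlx pair is linked to a Hox cluster, the covered share of the cluster was placed beside it, a comparison made after the values of the pairs had been seen. Dlx3 and Dlx4 are 1.05 Mb from the Hoxb cluster, of which 97.5% was covered, and 39.5% of the stretch between them was covered. Dlx5 and Dlx6 are 45.3 Mb from the Hoxa cluster, with 8.10% of the cluster and 5.73% of the stretch between covered. For Dlx1 and Dlx2, 3.12 Mb from Hoxd, the cluster was covered to 45.6% and the stretch between to 5.21%. The chromosomes as a whole were covered to 10.4% (chromosome 11), 6.70% (chromosome 6) and 7.90% (chromosome 2), with a median of 6.80% over the autosomes. Chromosome 11, which carries the covered pair, was thus the most covered of the autosomes. With 3 pairs, no relation can be tested.

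The 3 Msx genes also differed. Msx1, which is required for teeth and the palate, is on chromosome 5 at 37820485 to 37824583 (minus strand). No base of its 4099 bp was covered, whereas 42 sites covered 75.8% of the 50 kb on either side, 75.02% on the downstream and 76.65% on the upstream side. The stretch without a site ran from 37818950 to 37825360, over 6411 bp, and contained the whole gene. It was the longest of the 41 stretches between neighbouring sites in this window, where the median was 386 bp. It ended 778 bp upstream of the TSS at a site of 4092 bp, and on the other side at a site of 6453 bp that began behind the 3′ end of the gene. The covered share was 22.3% in the 1 kb upstream of the 5′ end and 96.7% at 1 to 5 kb. It was 0 up to 5 kb downstream and 87.3% at 5 to 10 kb. The gene had 43.9 CpGs per kb and was repeat-masked to 8.37%.

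A gene body without a site was common, as 11694 protein-coding genes (53.3%) had none. Of these, 11 including Msx1 had flanks of 50 kb covered at least as much as those of Msx1. The other 10, from the highest flank share of 87.6% downwards, were Pdrg1, Abcd4, Srxn1, Ift27, Mul1, Mpp2, Tead2, Tmem9, Qsox2 and Pank4. This comparison was chosen after the Msx1 values had been seen. Their bodies measured 5861 to 31501 bp, so that Msx1 was the shortest of the 11. Among all protein-coding genes, 144 had flanks covered to this extent. The count of 11 depended on the site list, which gave 3 genes after joining sites over gaps below 1 kb and 2 over gaps below 5 kb, and 27 and 37 genes when sites narrower than 500 bp and 1 kb were left out.

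Msx2, which acts in skull growth and in hair, is on chromosome 13 at 53466884 to 53473074 (minus strand). As at Msx1, the body was free of sites, and the stretch without a site, of 11014 bp from 53462822 to 53473835, contained the whole gene. The surroundings were less covered than at Msx1, with 6.20% upstream and 25.9% downstream within 50 kb. Upstream sites were within 10 kb of the TSS. The nearest had 553 bp and began 762 bp from the annotated TSS, and a site of 1902 bp followed at 53475016 to 53476917, which together with its neighbours covered 66.6% of the bases at 1 to 5 kb. Most sites on the downstream side were in Gm2762, a long non-coding RNA gene, and the widest of them had 5309 bp. The RefSeq start of Msx2, at 53472780, is inside the gene as GENCODE draws it and had no site within 1 kb. The count of members with a site at a start was 6 instead of 7 with RefSeq starts, an alternative chosen after the data had been seen.

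Msx3, a gene restricted to the dorsal neural tube, is on chromosome 7 at 140046157 to 140049089 (minus strand). It lay within 1 site of 10259 bp, from 140044154 to 140054412. This site was the last one before a long stretch without sites. Downstream of the gene, 4.01% of 50 kb was covered, all of it by the end of this site, and no site was found at the next protein-coding gene, Zfp511, whose body is 5554 bp away. Upstream, 77.9% of 50 kb was covered, and the sites that followed had 613, 12612 and 6266 bp. Joined over gaps below 1 kb they formed a domain of 30.8 kb, and over gaps below 5 kb one of 59.1 kb, to 140103254. It took in Caly, at 20790 bp upstream, which was covered to 73.8%. Repeat-masked sequence made up 48.1% of the uncovered bases around Msx3 and 19.7% of those in sites. The uncovered bases had the higher repeat share at the other 5 loci too, with 30.0 against 16.2% at Msx1, 22.6 against 11.4% at Dlx5 and Dlx6, 23.8 against 19.5% at Msx2, 26.3 against 22.4% at Dlx3 and Dlx4 and 25.7 against 23.4% at Dlx1 and Dlx2. The part of repeats in these gaps was not tested.

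**Figure D3:**
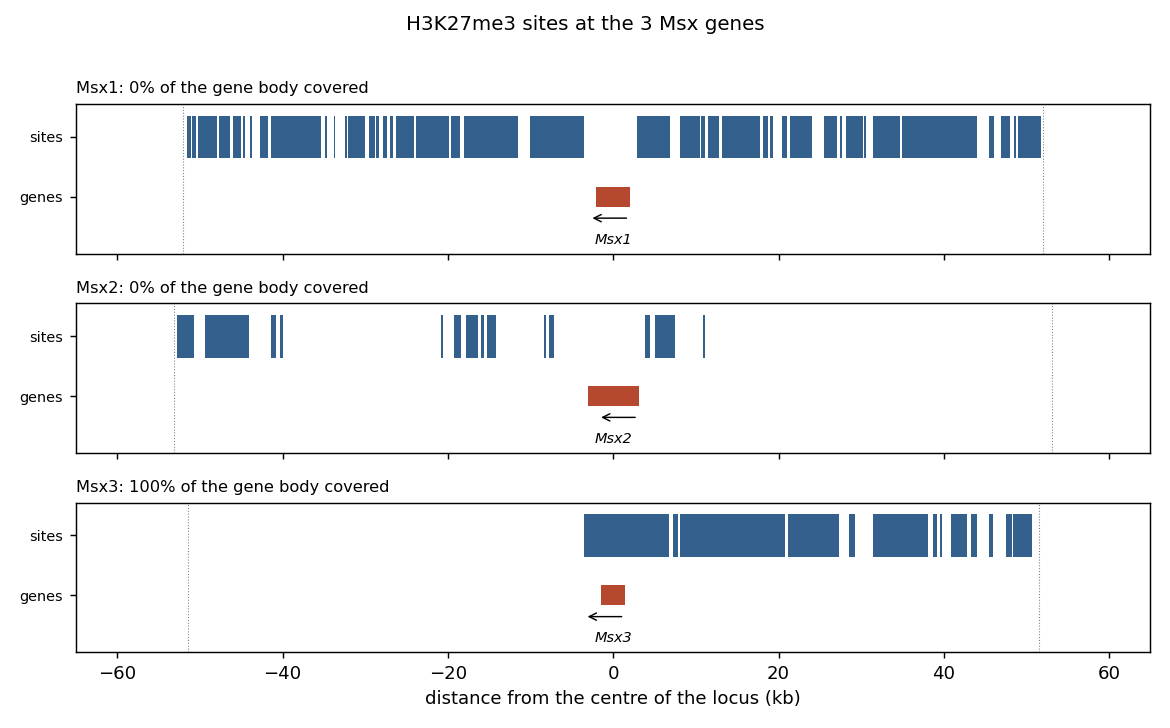
H3K27me3 sites (blue) and Msx genes (red, arrows in the direction of transcription) are drawn to scale against the distance in kb from the centre of each gene, with dotted lines at 50 kb from the gene ends. Msx1 sits in a gap of 6411 bp within dense sites, Msx2 in a gap of 11014 bp within sparse ones, and Msx3 inside a site of 10259 bp at the edge of a covered region.

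Covered shares by distance from the 5′ end are given as a description. Dlx3, Dlx4 and Msx3 were covered in full within 1 kb on both sides. Msx1, Msx2 and Dlx2 had no covered base within 1 kb downstream and a higher share upstream, of 96.7, 66.6 and 46.6% at 1 to 5 kb. Dlx6 had the same rise upstream, to 79.1%, but also 42.2% within 1 kb downstream. Dlx5 had none within 10 kb on either side. At Dlx1, the covered bases close to the start, 36.5% of the first 1 kb downstream, came from the single 365 bp site. The GC content of the 500 bp on either side of the 5′ end was between 52.8 and 62.6% for 8 genes and 44.6% for Dlx1. The ratio of observed to expected CpG was between 0.635 and 0.786 for all 9. The highest ratio was that of Msx3, and the next highest was that of Dlx2, which had no site at its starts.

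**Figure D4:**
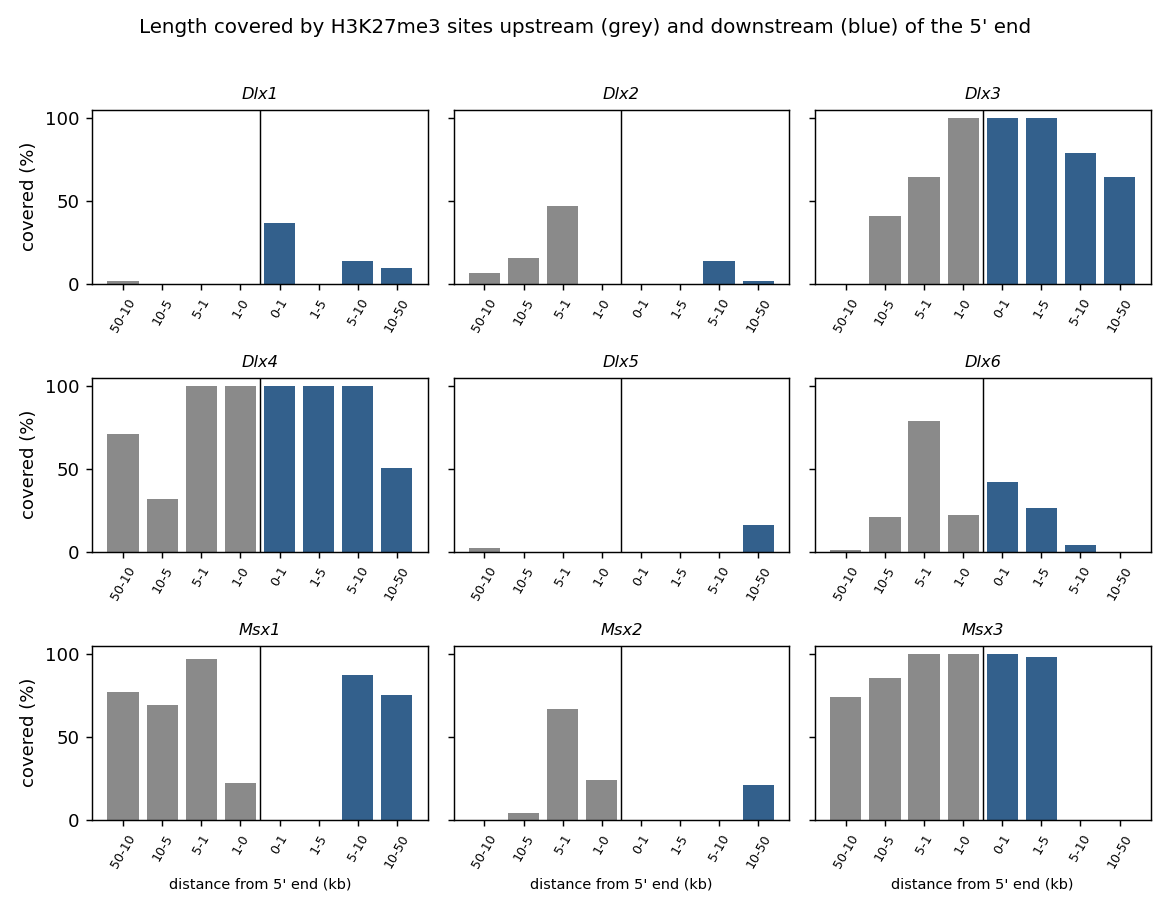
Bars give the percent of bases covered by H3K27me3 sites in 4 distance classes (0 to 1, 1 to 5, 5 to 10 and 10 to 50 kb) upstream (grey) and downstream (blue) of the 5′ end of each gene. Dlx3, Dlx4 and Msx3 reach 100% on both sides of the start, while Msx1, Msx2 and Dlx2 have no covered base within 1 kb downstream and 96.7, 66.6 and 46.6% at 1 to 5 kb upstream.

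Genes that work with Dlx and Msx genes were mostly covered at a start. Of 26 genes that act upstream of, beside or downstream of them in limb, skull, tooth and forebrain, 24 had a site within 1 kb of a TSS and 17 one of at least 2 kb. Wide sites were found at Alx4 (28867 bp), a homeobox gene of the skull and limb, and at Gsx2 (22734 bp), which acts above Dlx genes in the forebrain. Trp63, the epidermal factor p63, and Twist1, a mesenchymal bHLH factor, had no site at a start. The median covered share of the body was 29.7%. Of 19 other homeobox genes of the NK-like subclass, to which Dlx and Msx genes belong, 16 had a site at a start, and all 16 had one of at least 2 kb. The widest were at Barx1 (59436 bp), Vax2 (53217 bp) and Barhl2 (28924 bp), while Emx2, Hhex and Hlx had none. The median covered share of their bodies was 100%, compared with 6.22% for the Dlx and Msx genes and 0 for all genes. As these lists were chosen with results of these data known, nothing is read from the difference.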

How the data were processed

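H3K27me3 ChIP-seq was performed by the authors on iMEF cells in 6 groups of 2 libraries, with 2 input libraries. The authors used Trim Galore for trimming and BWA for alignment to mm10 (GRCm38.p6), filtered with samtools, merged replicate files with Picard, scaled libraries to the lowest coverage and called broad peaks with MACS. Versions, the peak threshold and the rule for combining peaks are not given in the sources used here. The deposited list holds chromosome, start and end of each site and 0 columns of values per library, so no columns were left unassigned and depth is unknown.

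Deposited starts were taken to count from 0, and positions are printed counting from 1. Gene models are those of GENCODE M21 on GRCm38, an earlier release than that of the study. Covered shares, widths and distances were computed with Python 3.11.15, numpy 2.4.6, pandas 2.3.3 and pysam 0.24.0, and the interval functions were tested on simulated data. A site counted at a start if any base of it lay within 1 kb of any annotated transcript start. The 6 loci with 50 kb on either side were aligned to the 74 patches of the assembly with minimap2 2.31. No alignment of at least 1 kb reached 99% identity. The Msx3 locus had 6 alignments of at least 1 kb, the longest of 7066 bp and the best at 97.9% identity. The other loci had none. The members, gene lists and comparisons were chosen with earlier results of these data known. Named were all members, the genes in the Dlx loci, the nearest protein-coding neighbours and, per list, the 3 genes with the widest site at a start and up to 3 with none. The Hox clusters, Gm2762 and the genes set beside Msx1 were named after their values had been seen. A gene that the rule on lists names is not reported here.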

Additional observations from a re-analysis of the deposited data

How the results depend on the processing

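No paired analysis was possible because what was analysed here holds only site positions, so libraries could not be left out in turn either. A change of over 1.5 times, or to or from 0, was counted as a shift. Of the summary values, 76 stayed within this limit and 28 shifted. Of those for single genes, 190 stayed and 59 shifted.

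The number of members with a site at a start was 3 when the centre of the site had to be in the window, a rule met by 24.7% of all protein-coding genes. The median covered share of the body was 0 with only sites of at least 500 bp or 1 kb. With 50 kb included the median was 26.2% with sites joined at 5 kb and 24.2% with flanks of 10 kb. The median width of the widest site at a start, 1478 bp with 0 for genes without one, was 4092 bp and 19551 bp with sites joined at 1 and 5 kb, and 365 bp and 2563 bp with windows of 500 bp and 2 kb. The Dlx1 and Dlx2 locus was covered to 3.58% with sites of at least 500 bp and 0 with those of at least 1 kb, and with 50 kb included to 3.15% and 1.91%, to 11.2% with sites joined at 5 kb and to 9.49% with flanks of 10 kb. Between these genes the share was 0 with sites of at least 1 kb. The Dlx5 and Dlx6 locus was covered to 32.5% with sites joined at 5 kb. With 50 kb included the share was 17.5% in that setting, 3.40% with sites of at least 1 kb, 15.8% with flanks of 10 kb and 3.61% with flanks of 100 kb. Between these genes it was 9.37% with sites joined at 5 kb and 0 with sites of at least 500 bp or 1 kb. The Dlx3 and Dlx4 locus with its flanks moved to 79.4% with flanks of 10 kb, and its other values stayed. It was the most covered of the pairs in all settings tried. The order of the lower pairs changed with 50 kb included when sites were joined at 1 kb (7.34% at Dlx1 and Dlx2, 7.27% at Dlx5 and Dlx6) and with flanks of 100 kb (4.28% and 3.61%), and between the genes when sites were joined at 5 kb. Over all protein-coding genes, the share with a site at a start was 20.1% with sites of at least 1 kb, and the share with a site in the body 29.6% with sites of at least 500 bp and 23.2% with those of at least 1 kb. Joining sites and leaving out narrow ones changes covered length by construction. As no read depth is given, a gap in the sites does not show that the mark was absent.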
